A study of Homo sapiens with 9 samples.

Results

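An IMR-32 line made to express the 69-kDa choline acetyltransferase (ChAT) in a stable way was compared in its gene expression with that on the arrays labelled wild-type IMR-32. The comparison used 6 of the series' 9 arrays, chosen by their titles, with 3 arrays per group. The other 3 arrays, from a line with the 82-kDa form, entered the estimate of the spread and a brief comparison with both groups. IMR-32 is an established human neuroblastoma line with amplified MYCN. All groups are labelled as this line, and no further allele or agent is named. The labels do not say which promoter drives the transgene, or whether the line is a clone or a pool. An effect of the 69-kDa protein, a trait of this line and a trait of the arrays labelled wild type cannot be told apart.

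ChAT makes acetylcholine from choline and acetyl-CoA in cholinergic neurons. Neuroblastoma arises from the sympathoadrenal branch of the neural crest, whose cells are specified by a small circuit of transcription factors including PHOX2A, HAND2, GATA3 and ISL1. The cells can make catecholamines, store them with granins in dense-core vesicles, and put out neurites. Some neuroblastoma cells instead take a mesenchymal state with YAP1, PRRX1 and related factors. Epithelial cells are recognised by keratins 8, 18 and 19, by EPCAM and E-cadherin (CDH1), and by desmosomes, the junctions that tie keratin filaments to the membrane. These programmes were used as rulers, and the question was which of them each group of arrays showed.

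Values are deposited RMA intensities, analysed on the log2 scale for 22215 probe sets, with medians of 133.7 to 142.7 per array. A gene was called where its limma adjusted p was under 0.05 (Benjamini-Hochberg over all probe sets, two-sided). Gene counts use 1 probe set per gene, the brightest, for 11963 genes. A gene was near background where all 3 arrays of a group gave it less than 55.9, which is the smallest lower quartile among the arrays. Folds against such a group are written as "about". A gene was called on where it read above its array's median on all 3 arrays, and because probe sets differ in brightness this describes a reading and not an amount of RNA. Log2 values of the line correlated with those of the wild-type arrays at 0.92 to 0.931 over probe sets, below the 0.976 to 0.998 within the line and the 0.99 to 0.995 within wild type. No probe set differed between the 69-kDa and the 82-kDa line by limma at an adjusted p of 0.05 (0 called, 733 at an unadjusted p under 0.05). The 82-kDa line correlated with the 69-kDa line at 0.976 to 0.994 and with wild type at 0.913 to 0.933. The differences below are therefore not shown to be particular to the 69-kDa line. Where 2 or more probe sets of a gene were called, 963 of 976 genes (98.7%) had them all in one direction. The same value stood on 2 or more of the 6 arrays for 17.9% of probe sets, so some groups below show repeated numbers.

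By probe set, 2422 were higher in the line (10.9%) and 3396 were lower (15.3%). With the replicate number as a block the first count was 3686, and with replicates 2 and 3 alone it was 4114. By gene, 1397 were higher (11.7%) and 2120 were lower (17.7%), and these shares are the background for every list below. All genes include some near background (1803 in the line and 1856 in wild type), so this background is rough for lists of brighter genes. The housekeeping genes, described last, give another. The median log2 difference over all genes was 0.05, and 54.6% of genes were on in the line and 55.2% in wild type. At least 2-fold, 473 genes were higher (3.95%) and 786 were lower (6.57%), and of probe sets 778 (3.50%) and 1238 (5.57%). CHAT read 256.0, 175.4 and 176.7 in the line and 147.6, 125.0 and 114.1 on the wild-type arrays. The groups did not overlap, as for 22.9% of genes with the line higher and 24.3% with it lower, but the log2 difference of 0.64 (SE 0.34) did not pass (adjusted p = 0.23; 0.040 with only the 6 arrays fitted).

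**Figure D1:**
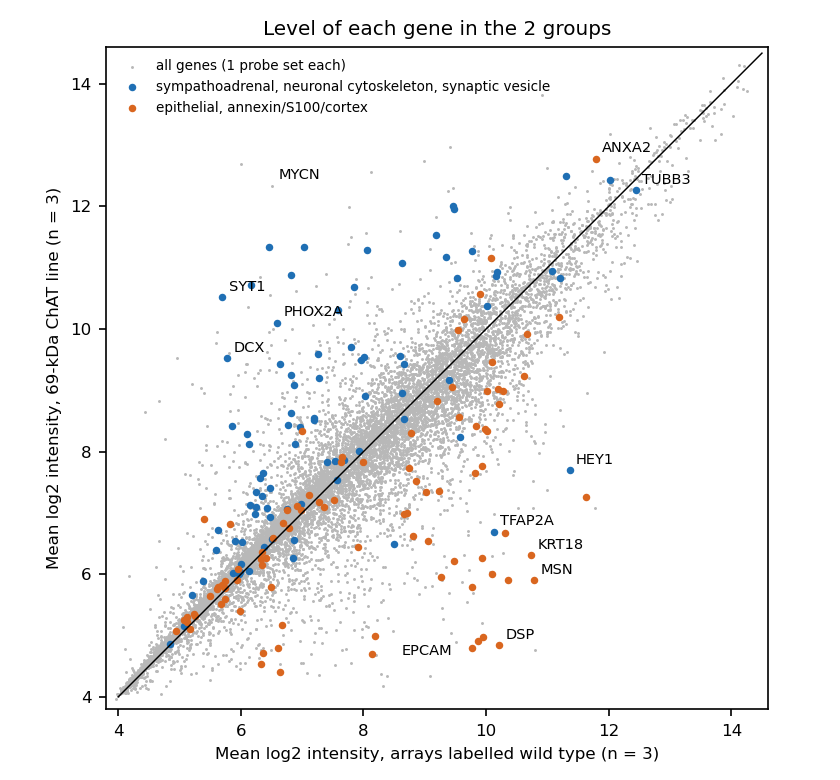
Mean log2 intensity of each gene on the 3 arrays labelled wild type (horizontal axis) and on the 3 arrays of the 69-kDa ChAT line (vertical axis), 1 point per gene, with the line of equality. Blue points (sympathoadrenal factors, neuronal cytoskeleton, synaptic vesicle lists) lie mostly above the line, apart from HEY1 and TFAP2A below it. Orange points (epithelial and annexin, S100 and cortex lists) lie mostly on or below it, apart from a few such as ANXA2 above.

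The markers that define IMR-32 were first read on the arrays that carry its name. MYCN, the amplified oncogene, read 4181, 5567 and 5947 in the line and 62.5, 120.5 and 100 on the wild-type arrays. DDX1, a helicase gene beside MYCN on chromosome 2 and often co-amplified, read 13442, 14858 and 14811 in the line and 1757, 1932 and 2081 on the wild-type arrays. NBAS, from the same stretch, read 5474, 6339 and 6268 against 337.1, 275.3 and 236.1. All 3 genes were thus far apart between the groups, with no overlap, at 56.9-fold, 7.48-fold and 21.5-fold (adjusted p at most 9.8e-07). ALK, the receptor kinase mutated in some neuroblastomas, was 2.36-fold higher in the line (log2 difference 1.24, SE 0.17, adjusted p = 0.00082). In the list of 2p genes and neuroblastoma oncogenes, 5 of 14 were higher and 0 lower.

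Most markers of the sympathoadrenal circuit were also higher in the line. PHOX2A, a homeobox factor needed for sympathetic neurons, read 761.4, 1327 and 1315 in the line and 90.8, 108.0 and 91.2 on the wild-type arrays. ISL1, a LIM homeobox factor of sympathetic and motor neurons, read 527.6, 1944 and 1988 against 198.0, 194.9 and 185.8. GATA3, a zinc finger factor required for noradrenergic differentiation, read 2263, 3243 and 3536 against 488.0, 723.2 and 555.3. The line was higher on every array for all 3 genes, and replicate 1 of the line was the lowest of its group each time. HAND2, a bHLH factor of the same circuit, was near background on the wild-type arrays and about 2.12-fold higher in the line (adjusted p = 0.0029). GATA2 did not differ beyond its error (log2 difference 0.18, SE 0.15, adjusted p = 0.45). The data therefore go against the label of the wild-type arrays. Their MYCN and PHOX2A were below the array median and HAND2 near background, whereas DDX1, NBAS, ALK, GATA2, GATA3 and ISL1 were on there, though lower than in the line for all of these but GATA2. The cause was not tested, and every difference below is a difference from these arrays and need not be an effect of the transgene.

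Of 27 measured sympathoadrenal transcription factors, 16 were higher in the line (59.3%) and 3 lower (11.1%), with a median log2 difference of 1.53. INSM1, a zinc finger repressor of neuroendocrine progenitors, read 2400, 2702 and 2698 in the line and 134.8, 118.9 and 136.9 on the wild-type arrays, a 20-fold difference. MEIS1, a homeobox cofactor, was 16.8-fold higher, TLX2, a neural crest homeobox factor, was 23.5-fold higher, and KLF7, a neuronal zinc finger factor, was 4.64-fold higher. SATB1, a chromatin organiser, was 5.42-fold higher. The 3 members in the other direction were HEY1, TFAP2A and MEIS2. HEY1, an effector of Notch signalling, read 211.4, 206.0 and 204.8 in the line against 2560, 3060 and 2343. TFAP2A, a factor of both neural crest and surface ectoderm, read 116.4, 98.8 and 96.3 against 844.5, 1276 and 1315. Both were thus higher on every wild-type array. MEIS2 was 4.01-fold lower in the line.

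**Figure D2:**
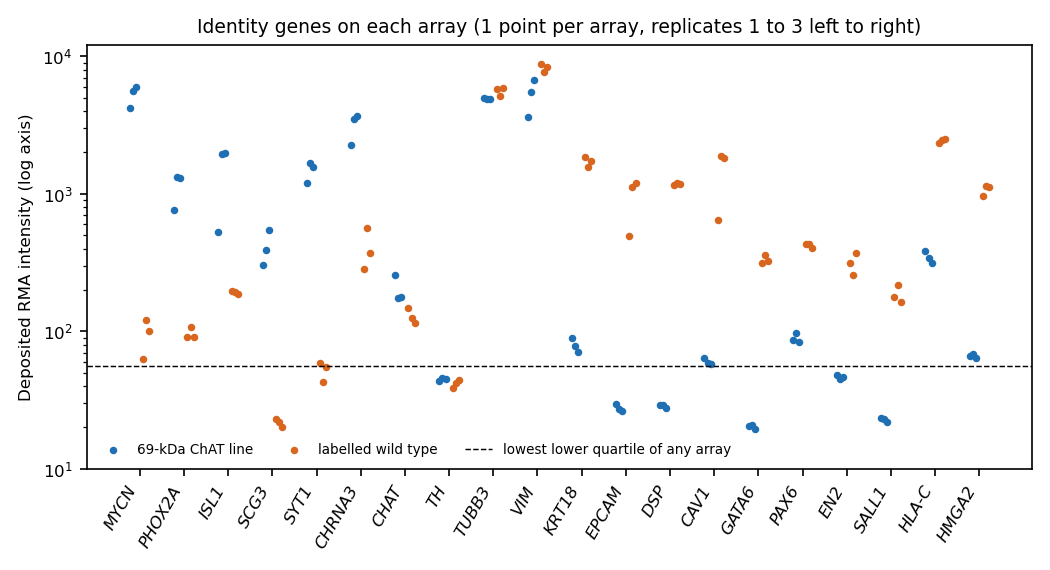
Deposited RMA intensity (log axis) of 20 genes on each of the 6 arrays, blue for the 69-kDa ChAT line and orange for the arrays labelled wild type, with the level under which all 3 readings of a group were called near background (dashed). MYCN, PHOX2A, ISL1, SCG3, SYT1 and CHRNA3 are higher on all blue points, CHAT is separated narrowly, TH lies under the dashed line in both groups, TUBB3 and VIM are bright in both, and KRT18 to HMGA2 are higher on all orange points.

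The catecholamine list was called near the shares of all genes (14.3% higher and 14.3% lower), with 2 members higher in the line. SLC6A2, the noradrenaline transporter, read 497.9, 746.1 and 670.7 in the line and 104.6, 123.0 and 158.8 on the wild-type arrays. DDC, which makes dopamine from L-DOPA, read 188.5, 662.4 and 699.0 against 92.6, 85.9 and 92.2, so replicate 1 of the line stood well below replicates 2 and 3. Both were called (adjusted p = 2.9e-05 and 0.0053), and the groups did not overlap. TH, the rate-limiting enzyme of catecholamine synthesis, was near background in both groups, with 43.8, 45.7 and 45.1 in the line and 38.8, 42.0 and 44.1 on the wild-type arrays. SLC18A2, a vesicular monoamine transporter, was also near background in both. DBH, which makes noradrenaline, read 89.2, 83.0 and 76.6 in the line against 70.3, 71.1 and 59.7 (adjusted p = 0.19). Over the 14 measured genes 2 were higher and 2 lower (VAT1 and CYB561, the latter call lost in 8 alternatives at the same threshold with adjusted p of 0.054 to 0.10), and the block raised the higher count to 4.

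Of the granins, the acidic proteins that load dense-core vesicles, SCG3, SCG2, CHGB and CHGA were higher. SCG3, which binds other granins to the vesicle membrane, read 303.8, 390.2 and 542.2 in the line and 23.1, 21.9 and 20.1 on the wild-type arrays, about 18.5-fold. SCG2 was about 11.8-fold higher, CHGB 7.20-fold and CHGA 2.45-fold, with adjusted p of 0.00011 or less. SCG5, a chaperone of prohormone convertase, was near background in both groups, and VGF and PCSK1N were not called (adjusted p = 0.24 and 0.25). Among the 21 members of the dense-core vesicle list 7 were higher and 3 lower. The lower members were PAM, an enzyme that amidates peptides (2.83-fold), the tachykinin precursor TAC1, near background in both groups, and SGSM3 (1.22-fold), whose call was lost without replicate 2 or 3 of the line or replicate 2 of wild type (0.055 to 0.062).

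Genes of the neuronal cytoskeleton and of neurite growth were higher as a group, yet not every one parted the groups. Of 32 measured members 20 were higher (62.5%) and 1 lower (3.1%), with a median log2 difference of 0.89, and 26 were on in the line against 20 in wild type. Without replicate 2 of the line or replicate 3 of wild type the higher count was 13. DCX, a microtubule protein of migrating neurons, read 500.1, 862.4 and 934.4 in the line and 52.2, 62.7 and 50.5 on the wild-type arrays. CRMP1, a mediator of semaphorin signalling, read 2235, 2663 and 2592 against 263.7, 247.9 and 287.1. MAP1B, a microtubule protein of growing axons, was 5.56-fold higher and BEX1 5.89-fold higher. MAP2, a dendritic microtubule protein, was 2.14-fold higher, and GAP43, a growth cone protein, 1.38-fold higher (adjusted p = 0.031), a call lost without replicate 1 or 2 of the line or replicate 2 or 3 of wild type (0.065 to 0.098). STMN2, a regulator of microtubules in growth cones, read 97.0, 498.2 and 816.9 against 56.7, 56.9 and 60. Its groups did not overlap, but the spread within the line kept it from passing (adjusted p = 0.085; 3.9e-05 with replicates 2 and 3 alone). TUBB3, the neuronal beta tubulin, was bright in both groups, at 4945, 4916 and 4919 in the line against 5759, 5145 and 5855 (adjusted p = 0.14). NEFL, the light neurofilament subunit, was the single lower member, at 196.0, 363.8 and 391.7 in the line against 631.9, 828.2 and 837.1. The other neuronal filament genes, named after their values were seen, were higher in the line: PRPH by 2.85 on the log2 scale, NEFH by 2.78, NEFM by 1.44 and INA by 1.31 (adjusted p = 0.0053, 0.034, 0.0025 and 0.00029). The call of NEFH was lost without replicate 2 or 3 of the line or any array of wild type (0.086 to 0.11).

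RNA-binding proteins of neurons showed a like split. ELAVL4, which stabilises neuronal mRNAs, read 1128, 2252 and 2482 in the line and 64.0, 96.8 and 79.6 on the wild-type arrays. ELAVL2 was 3.99-fold higher and PTBP2, a splicing repressor of developing neurons, 4.13-fold higher. ELAVL3 was 1.29-fold higher (adjusted p = 0.025), a call lost under 7 alternatives at the same threshold (0.053 to 0.10), and NOVA1 was not called (0.45). CELF2, a splicing regulator, went the other way, at 163.8 to 227.4 in the line against 814.4 to 878.2. Of 12 measured members 7 were higher and 1 lower.

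Most genes of transmitter release were higher in the line. Of 27 measured synaptic vesicle genes 17 were higher (63.0%) and 1 lower (3.7%), with 9 not called and a median log2 difference of 0.75, and 14 were on in the line against 4 in wild type. SYT1, the calcium sensor of release, read 1202, 1672 and 1572 in the line and 59.2, 42.6 and 55.4 on the wild-type arrays. SYN2, a synapsin that tethers vesicles, read 801.1, 771.7 and 755.0 against 181.7, 154.9 and 127.6. SNAP25, a SNARE of the plasma membrane, read 470.5, 307.3 and 334.9 against 194.8, 130.4 and 122.2. Each of the 4 defining genes of the list was called higher, SYP at 2.58-fold and SYN1 at 2.36-fold beside these. SYNGR3, a vesicle membrane protein, was the lower member (1.5-fold, adjusted p = 0.045), and that call was lost under 10 alternatives at the same threshold (0.050 to 0.15).

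Fewer receptors and channels were called. Of 27 ion channel genes 8 were higher and 0 lower, but 3 to 5 without replicate 1 or 2 of the line or any array of wild type. They were led by SCN3B, a sodium channel subunit (9.99-fold), and KCNH2, a potassium channel (5.02-fold). Of 29 transmitter receptor genes 3 were higher (10.3%), near the share of all genes, and 1 was lower. HTR3A, a serotonin-gated channel, read 238.4, 591.6 and 552.1 in the line against 136.1, 89.4 and 94.5. GABRA5 and GRIK2 were the other higher receptors (2.13-fold and 1.52-fold), and the glycine receptor subunit GLRB was 1.53-fold lower.

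The cholinergic genes, the transgene's own pathway, were higher in 6 of 18 cases and lower in 0. CHRNA3, the alpha 3 nicotinic subunit of autonomic ganglia, read 2275, 3485 and 3702 in the line and 282.7, 563.8 and 368.9 on the wild-type arrays. Its partner CHRNB4 read 201.2 on all 3 arrays of the line against 64.6, 50.1 and 33.7. SLC18A3, the vesicular acetylcholine transporter, which lies within the CHAT gene, read 225.8, 278.4 and 323.6 against 71.9, 104.5 and 92.6. All 3 passed (adjusted p = 6.6e-05, 9.3e-05 and 0.00014), and their groups did not overlap. BCHE, a cholinesterase, was about 2.88-fold higher from a background level. The choline transporter SLC5A7 and acetylcholinesterase (ACHE) were not called (adjusted p = 0.63 and 0.43). CHRNA5 was 1.38-fold higher (adjusted p = 0.015), a call lost without replicate 2 of the line or replicate 1 or 2 of wild type (0.052 to 0.058). The other 6 of the 9 nicotinic subunits measured were not called (adjusted p from 0.052 to 0.82).

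Adhesion and guidance genes were called in both directions, not far above the shares of all genes. Of 63 measured, 10 were higher (15.9%) and 15 lower (23.8%), with a median log2 difference of 0.08. With the block the counts were 16 and 17 (21 and 16 with replicates 2 and 3 alone). NCAM1 and L1CAM, adhesion molecules of neurons, were 3.40-fold and 6.29-fold higher in the line. SLIT2, a repellent guidance cue, read 151.4, 127.9 and 127.7 in the line against 1922, 1238 and 1332. EPHA7, an ephrin receptor, read 19.3, 20 and 22.0 against 180.2, 134.5 and 154.0. EFNB2, an ephrin ligand, read 67.7 to 70.2 against 505.6 to 798.2. These 3 genes of repulsive guidance were thus higher on every wild-type array. They were named for their small adjusted p and do not stand for the list. In the line EPHA7 was near background and SLIT2 was not. Among neural receptor kinases and partners 5 of 19 were higher, with GFRA2, a receptor of neurturin, at 7.51-fold and KIT at 3.83-fold, and 2 were lower (1 without replicate 2 or 3 of the line or any array of wild type). RET was not called (adjusted p = 0.72). NGFR read 346.5, 81.7 and 73.0 in the line against 64.1 to 69.6, so that only replicate 1 stood out (adjusted p = 0.46).

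**Figure D3:**
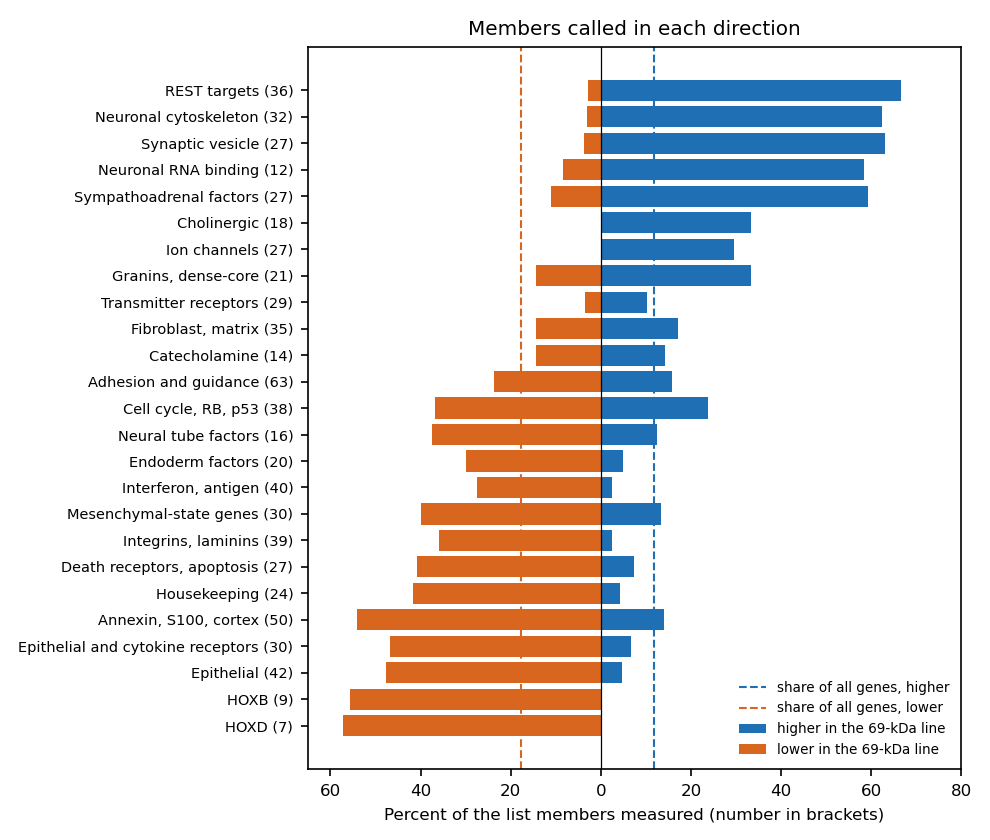
Percent of the measured members of each list (number in brackets) called higher (blue, to the right) and lower (orange, to the left) in the 69-kDa ChAT line, with the shares over all genes as dashed lines (11.7% higher, 17.7% lower). REST targets, synaptic vesicle and cytoskeleton genes reach above 60% on the right, and HOXD, HOXB and the annexin, S100 and cortex genes above 50% on the left.

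REST is a repressor that holds neuronal genes off in other cells by binding a long DNA element, RE1, and recruiting histone deacetylases. The stretches below carry TTCAGCACC, the left arm of that element, in capitals (GGTGCTGAA where it lies on the other strand), and are shown because most genes of the REST target list were higher in the line. All are RefSeq promoter sequences of GRCh38.p14, 5′ to 3′ on the strand of the gene, from 250 bases before to 50 after its start. SYN1, CELSR3, SCG3 and UNC13A are the members of the list that were higher in the line and have the arm in this window. KCNK3, a potassium channel outside the list, was picked after its values were seen.
SYN1: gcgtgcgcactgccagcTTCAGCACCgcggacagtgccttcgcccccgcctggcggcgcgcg
CELSR3: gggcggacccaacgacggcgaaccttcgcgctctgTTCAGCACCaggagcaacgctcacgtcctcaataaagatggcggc
SCG3: acaggaacTTCAGCACCcacagggc
UNC13A: gcgcccccGGTGCTGAAccaagatg
KCNK3: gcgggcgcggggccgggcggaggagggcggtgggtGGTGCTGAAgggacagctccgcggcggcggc
The SYN1 stretch is chrX:47620046-47620107 (minus strand) and the CELSR3 stretch chr3:48662990-48663069 (minus strand), both upstream of the start. SCG3 is chr15:51681503-51681527 (plus strand) and UNC13A chr19:17688332-17688356 (minus strand), both just after the start. KCNK3 is chr2:26692656-26692721 (plus strand), upstream.

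Of 36 measured REST targets 24 were higher in the line (66.7%) and 1 lower, with a median log2 difference of 0.86, and 23 were on in the line against 9 in wild type. The list shares members with the granin, cytoskeleton and vesicle lists above. CELSR3, a cadherin of axon guidance, read 264.3, 189.2 and 194.2 in the line against 117.9, 109.3 and 112.3. UNC13A, which primes vesicles, read 48.1, 53.4 and 49.5 against 36.5, 39.3 and 34.6, low in both groups. KCNK3 read 324.7, 231.3 and 235.8 against 40.9, 48.5 and 40.5, about 6.04-fold. The lower member was GAD1, an enzyme of GABA synthesis (2.36-fold). The arm, searched on both strands, was found in 40 of 9563 promoters (0.42%). It was in 12 of 1108 promoters of genes higher in the line (1.08%), in 4 of 1802 of those lower (0.22%) and in 5 of 25 of the list (20%). GRIA2, the fifth of these, was not called (adjusted p = 0.26). Of the 6 other motifs searched on both strands, GGACAGC, the right arm, was in 8.76% of all promoters, 8.39% of those higher and 7.82% of those lower. CACGTG, the E-box that MYC proteins bind, was in 11.96%, 15.79% and 11.82%. In the same order, CAGCTG was in 23.35%, 26.08% and 23.25%, GGGCGG in 69.77%, 79.78% and 81.58%, TGACTCA in 5.43%, 5.23% and 4.66%, and GGAATG in 15.71%, 14.62% and 15.04%. No difference between these shares was tested. A match describes letters in a window and does not show binding.

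REST itself read 252.9, 280.6 and 252.9 in the line and 157.0, 252.9 and 260.1 on the wild-type arrays, so the groups overlapped (adjusted p = 0.33). HDAC1, a histone deacetylase of its complexes, read 271.6, 303.8 and 290.2 in the line against 1579, 1768 and 1940, 6.09-fold lower. Of 14 measured cofactors and regulators 3 were higher and 2 lower (5 and 3 with the block). The higher members were CTDSP2, a phosphatase, RCOR3, a corepressor, and EHMT2, a histone methyltransferase (2.02-fold, 1.93-fold and 1.6-fold). Besides HDAC1, RBM47, a splicing regulator of epithelial cells, was about 2.73-fold lower.

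**Figure D4:**
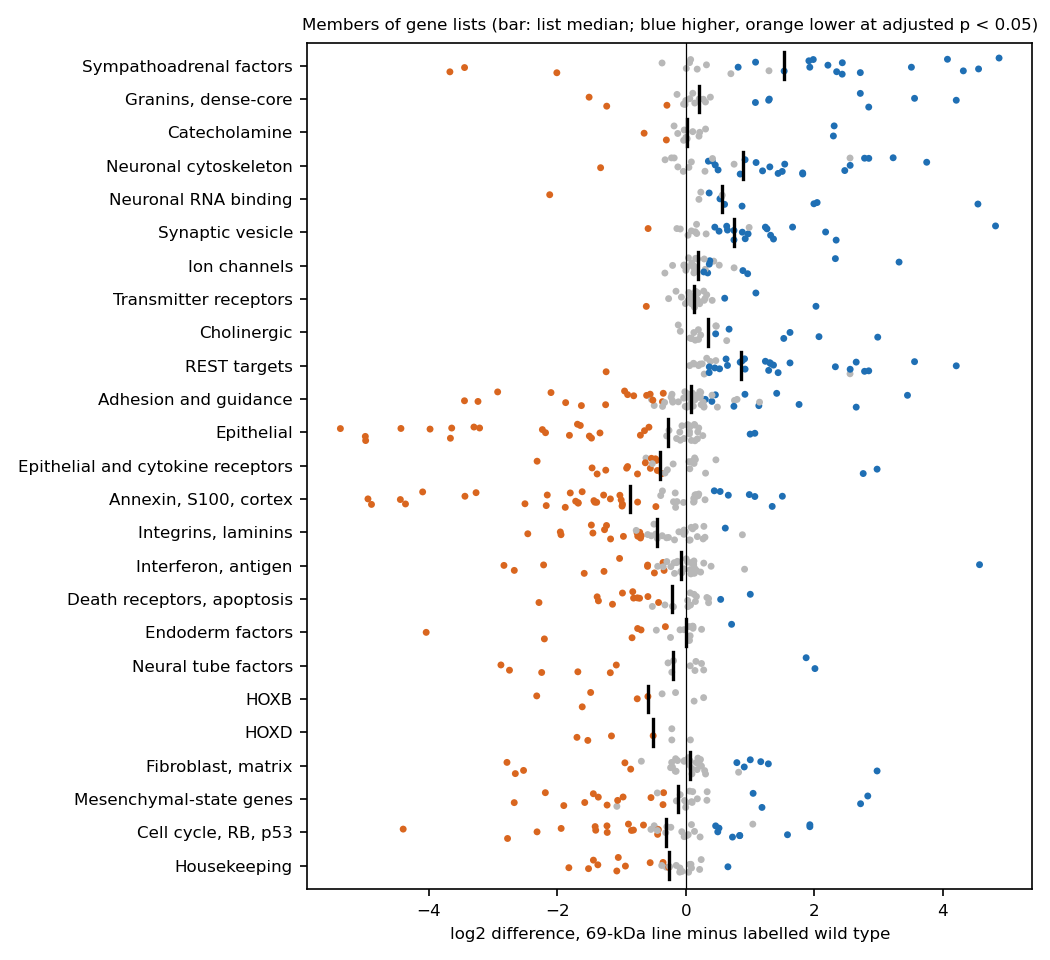
Log2 difference between the 69-kDa ChAT line and the arrays labelled wild type for every measured member of 25 gene lists, 1 point per gene, blue where called higher, orange where called lower and grey where not called, with the list median as a black bar. Sympathoadrenal factors have the highest median (1.53) and annexin, S100 and cortex genes the lowest (-0.87), while epithelial genes spread from -5.37 to 1.08.

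Among genes brighter on the wild-type arrays was, first, a set of simple epithelial genes. These did not simply replace the sympathoadrenal factors, of which 12 of 27 were on there (19 in the line). Of 42 epithelial genes 20 were lower in the line (47.6%) and 2 higher (4.8%), with 20 on in wild type against 8 in the line. KRT18, a keratin of simple epithelia, read 1842, 1573 and 1722 on the wild-type arrays and 88.9, 78.6 and 71.2 in the line. KRT8, its partner, read 800.6, 1086 and 1074 against 84.1, 76.1 and 72.1. KRT19 read 1017, 1046 and 923.6 against 33.1, 31.2 and 29.9. EPCAM, an adhesion molecule of epithelia, read 492.9, 1121 and 1209 against 29.7, 27.1 and 26.4, with replicate 1 of wild type lowest. Keratins and EPCAM were thus bright on every wild-type array and close to or under background on every array of the line. Some junction genes went with them. DSP, the desmosome's link to keratin, read 1165, 1209 and 1189 on the wild-type arrays and 27.9 to 29.1 in the line. DSG2, a desmosomal cadherin, was 15.8-fold lower in the line, and LSR, a tight junction protein, about 9.23-fold lower. The claudin genes CLDN1, CLDN3 and CLDN7 were not called (adjusted p = 0.72, 0.45 and 0.63). SPINT2, a protease inhibitor of epithelia, was 12.5-fold lower. CDH1 read only 90.6, 104.1 and 58.2 on the wild-type arrays, against 24.1 to 29.3. The list was not uniform: of its 11 defining markers 6 were lower in the line, and KRT7, CLDN4, ELF3, ST14 and RAB25 were not called (adjusted p from 0.15 to 0.78). The median over the list was a log2 difference of only -0.28. The 2 higher members were EZR (2.11-fold), a linker of membrane and actin, and VILL (2-fold), the call of EZR being lost without replicate 2 or 3 of the line or replicate 1 or 2 of wild type (0.066 to 0.081).

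Squamous markers were mostly not called, with 0 of 23 higher and 4 lower. KRT5 was not called (adjusted p = 0.30), and KRT14 and DSG3 were near background on the wild-type arrays. DSC3, a desmosomal cadherin, was the exception, at 201.8, 276.2 and 310.7 against 37.9, 37.4 and 36.6. ITGA6 was 3.87-fold lower in the line. The basal keratins therefore did not accompany the simple ones.

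Transcription factors of organ identity gave a mixed reading. GATA6, a factor of endoderm and heart, read 316.4, 357.3 and 325.9 on the wild-type arrays and 20.5, 20.7 and 19.6 in the line. SOX9 read 443.1, 453.1 and 404.3 against 116.2, 69.2 and 104.2. SALL1, a factor of kidney and limb development, read 177.0, 218.6 and 163.9 against 23.4, 23.1 and 21.9. These 3 were called without overlap. Of other such factors, FOXA2, SOX17, PAX2, PAX8, LHX1 and WT1 did not pass (adjusted p from 0.22 to 0.86). FOXA1 and GATA4 were lower in the line by 1.78-fold and about 1.62-fold, both from 137.4 or less on the wild-type arrays. KLF5 was about 1.24-fold lower (adjusted p = 0.019), a call lost without replicate 2 of the line or replicate 2 or 3 of wild type (0.050 to 0.071). In the list of endoderm and gastric factors 6 of 20 were lower, among them 5 of its 7 defining markers, and 1, PROX1, higher.

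Some factors of the neural tube were also brighter on the wild-type arrays. PAX6, a factor of eye and forebrain, read 432.2, 428.7 and 401.8 there and 86.7, 97.7 and 83.1 in the line. EN2, a midbrain and hindbrain homeobox factor, read 315.9, 257.6 and 372.9 against 48.1, 45.2 and 46.6. HES1, a Notch effector that holds progenitors undifferentiated, read 185.1, 303.2 and 286.5 against 36.9, 34.6 and 31.9. SOX3, EMX2 and EN1 were lower in the line as well, about 3.20-fold, 2.25-fold and 2.11-fold. The list of 16 had 6 lower, 2 higher and 8 not called. The higher members were NES, an intermediate filament of progenitors (4.03-fold), and NEUROG2, a proneural factor (about 3.67-fold), while SOX1, SOX2 and LHX2 were not called. A neural factor was therefore not a mark of the line alone.

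HOX genes, which record position along the body axis, were mostly lower in the line where called. In the B cluster 5 of 9 measured genes were lower in the line and 0 higher, and in the D cluster 4 of 7 and 0. HOXB7 read 542.8, 717.5 and 859.0 on the wild-type arrays and 141.4, 140.5 and 135.9 in the line. HOXD11 read 177.2, 185.6 and 216.9 against 65.1, 57.5 and 56.5. HOXB2, HOXB6 and HOXD10 were lower by 2.79-fold, about 3.05-fold and about 2.87-fold. The C cluster had 3 lower and 1 higher of 7. HOXC6 read 1170, 1273 and 1166 on the wild-type arrays and 654.7, 854.0 and 936.1 in the line, a call lost without replicate 2 of wild type (adjusted p = 0.018 with it, 0.066 without). HOXC8 was 1.36-fold higher in the line. In the A cluster 1 gene was measured by a probe set of its own, and it was not called.

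Markers of most organs did not part the groups. Over 18 lists of organs and cell types, joined to 253 genes, 8 were higher in the line (3.2%), 26 lower (10.3%) and 219 not called. These shares were below those of all genes in both directions. However, 81 of the 253 were near background in the line and 90 in wild type, and only 52 and 51 were on. Many thus had little signal in which a difference could be called. Of their 95 defining markers 89 were not called. The 6 called were GATA3 and PMEL, higher in the line, and CGA, FOXA1, HOXB13 and TFAP2C, lower. The call of PMEL, a melanosome protein, was lost in 6 alternatives at the same threshold (adjusted p = 0.030, then 0.052 to 0.11). No member of the hepatocyte, intestinal, endothelial or thyroid list was called by limma, of 24, 24, 14 and 7 measured (with the block 2 hepatocyte, 1 intestinal and 1 thyroid gene were). ALB, CD14 and CDH5 were near background in both groups, and CDX2 and PTPRC were not called. Among the trophoblast genes TFPI2, a protease inhibitor, stood out, at 374.4, 657.1 and 706.5 on the wild-type arrays and 59.1, 54.2 and 55.4 in the line. GCM1 and HSD3B1 of that list were near background in both groups, and CGA was 1.99-fold lower in the line. In none of the 18 lists were all defining markers on in either group.

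Fibroblast and matrix genes were called near the shares of all genes in both directions. Genes of the mesenchymal neuroblastoma state were more often lower, at a share close to that of the housekeeping genes described last. VIM, the intermediate filament of mesenchymal cells, read 8870, 7707 and 8315 on the wild-type arrays and 3596, 5544 and 6786 in the line, bright in both (adjusted p = 0.073). FN1, fibronectin, read 2063, 3252 and 1973 against 366.6, 431.1 and 441.4, a 5.75-fold difference. IGFBP7 was 6.28-fold lower in the line and TIMP1 6.87-fold. COL1A1 was not called (adjusted p = 0.17), and COL3A1 and LUM were near background in both groups. In the other direction PDGFRA, a receptor of mesenchymal cells, read 377.9, 326.0 and 328.9 in the line against 34.4, 49.7 and 48.5, and THY1 was 2.25-fold higher. The 35 fibroblast and matrix genes had 6 higher (17.1%) and 5 lower (14.3%). Of 30 genes of the mesenchymal neuroblastoma state 4 were higher (13.3%) and 12 lower (40%), and without replicate 1 or 3 of wild type 2 were higher. TWIST1 and SNAI2, factors of epithelial-mesenchymal transition and of the neural crest, were the main higher members, at 493.0, 711.4 and 712.1 against 84.9, 103.8 and 98.9 for TWIST1, and 309.3, 499.0 and 703.2 against 67.8, 79.3 and 55.7 for SNAI2. ID4 and the receptor NOTCH2 were lower (6.36-fold and 4.54-fold). Of the 7 measured genes used to define this state, TWIST1 and SNAI2 were thus higher and YAP1 and WWTR1 lower, while PRRX1, FOSL1 and FOSL2 were not called. The median log2 difference of the list was -0.12. YAP1, a coactivator of the Hippo pathway, was near background in the line and about 2.08-fold lower, and its targets CCN2 and CCN1 were about 2.32-fold and 2.14-fold lower. Of 22 YAP targets and partners 6 were lower and 2 higher (1 higher without replicate 2 of wild type). Their median log2 difference was 0.08, and ANKRD1 of that list was not called (adjusted p = 0.54).

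Many genes of the cell cortex were lower in the line. Of 50 annexin, S100, caveola and actin cortex genes 27 were lower (54.0%) and 7 higher (14%), with the median log2 difference at -0.87, and 34 were on in wild type against 24 in the line. ANXA1, a calcium-dependent membrane protein, read 947.0, 934.1 and 908.4 on the wild-type arrays and 34.7, 29.9 and 26.5 in the line. MSN, which links membrane to actin, read 1282, 2318 and 1857 against 59.0, 61.0 and 58.9. S100A10 read 2603, 3168 and 3795 against 159.8, 160.3 and 141.2. CAV1, the coat protein of caveolae, read 649.9, 1889 and 1822 against 64.4, 58.7 and 57.8, so that replicate 1 of wild type stood well below the other two. S100A11, CAV2 and TES were lower by 17.1-fold, about 10.8-fold and 9.60-fold, and LGALS3, a galectin, by 4.50-fold. Close relatives did not move together: ANXA2, the partner of S100A10, was 1.99-fold higher in the line, at 5866 to 7778 against 2979 to 4057, and S100A6 was about 2.84-fold higher. Among these pairs the line was thus low for S100A10 and high for ANXA2.

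Genes of contact to the basement membrane were lower in part. Of 39 integrin, laminin and basement membrane genes 14 were lower in the line (35.9%) and 1, LAMB1, higher (adjusted p = 0.022), a call lost with only the 6 arrays and without replicate 1 or 3 of wild type (0.052 to 0.075). LAMC1, the laminin gamma 1 chain, read 1333, 1703 and 1532 on the wild-type arrays and 520.1 to 562.9 in the line. COL4A5, a collagen IV chain, and NID2, a nidogen, were about 5.49-fold and 3.84-fold lower, both near background in the line. ITGA2, ITGA3 and ITGB4 were not called.

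Receptors that epithelial and mesenchymal cells use were lower in 14 of 30 cases (46.7%), or 9 without replicate 2 of the line or replicate 3 of wild type, and higher in 2. FGFR3 read 1499, 873.7 and 812.4 on the wild-type arrays and 296.5, 176.9 and 165.7 in the line, with replicate 1 highest in both groups. ERBB2 was 2.37-fold and TGFBR2 2.75-fold lower. EGFR and MET were not called (adjusted p = 0.56 and 0.14). The 2 higher members were PDGFRA, above, and DDR2, a collagen receptor (6.78-fold).

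Some genes of antigen presentation, which is known to be low in many MYCN-amplified neuroblastomas, and of death receptor signalling were lower in the line. HLA-C read 2362, 2473 and 2486 on the wild-type arrays and 381.0, 339.4 and 313.8 in the line. HLA-B, HLA-E and the loading factor TAPBP were lower by 6.35-fold, 4.63-fold and 2.04-fold, although the near-identical class I genes may share probes. In the list of 40 interferon and antigen genes 11 were lower (27.5%), 1 was higher (3 with the block) and 28 were not called, with a median log2 difference of -0.07. The higher member, IFI44, an interferon-induced gene, read 727.6, 760.3 and 722.2 in the line against 34, 30.1 and 29.0. CASP8, the initiator caspase of death receptors that is silenced in many MYCN-amplified tumours, read 112.8, 188.0 and 145.3 on the wild-type arrays and 39.8, 26.5 and 25.4 in the line. FAS was about 2.60-fold lower, CASP6 2.20-fold and BAK1 1.64-fold. Of 27 apoptosis genes 11 were lower (40.7%), or 7 without replicate 2 or 3 of the line or replicate 1 of wild type. BCL2L1 and HRK were higher, HRK not without any array of wild type (adjusted p = 0.054 to 0.072).

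Cell cycle genes differed in both directions, with 9 of 38 higher and 14 lower (9 lower without replicate 2 of wild type). Cyclins D1 and D2 went opposite ways: CCND2 read 573.7, 773.2 and 748.4 on the wild-type arrays and 37.2, 31.5 and 30.3 in the line, whereas CCND1 read 206.3, 352.4 and 325.5 against 553.3, 1465 and 1622. Their kinase partner CDK6 was 3.00-fold higher in the line. CDKN2A, which encodes the inhibitors p16 and ARF, read 1331, 1423 and 1462 on the wild-type arrays and 175.6, 223.6 and 221.4 in the line. CDKN1A, the p53 target that encodes p21, read 1293, 1321 and 1196 against 292.7, 328.9 and 377.1, and cyclin E1 (CCNE1) was 2.64-fold lower in the line. Cyclins D2 and E1 and both inhibitors were thus the brighter on the wild-type arrays.

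Chromatin and oncofetal genes gave 8 higher and 5 lower of 21. HMGA2, an oncofetal chromatin protein, read 968.0, 1140 and 1115 on the wild-type arrays and 66.2, 68.1 and 63.6 in the line. The RNA-binding IGF2BP2 was 2.90-fold lower, while IGF2BP3 was not called (adjusted p = 0.13). NAP1L3, a nucleosome assembly protein of neurons, was about 5.89-fold higher in the line, and ARID5B 4.60-fold lower. Of 21 cancer-testis genes 2, SSX1 and SSX3, were higher and 0 lower (SSX3 at 0.049, lost in 10 alternatives at the same threshold with 0.050 to 0.11), and 0 were on in either group.

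Genes of ranks 9 to 34 by log2 difference, below the 8 largest in each direction, were of mixed function. Besides members named above, those higher in the line included secreted proteins: DKK1, an inhibitor of Wnt signalling, read 914.3, 1148 and 2169 against 57.1, 75 and 77.5, and MGP, an inhibitor of calcification, read 508.0, 1198 and 1572 against 60.2, 43.6 and 44.1. The pentraxin PTX3 was about 17.8-fold higher, the anti-angiogenic factor SERPINF1 11.1-fold, and MFAP4, a microfibril protein, 11.4-fold. In MGP, PTX3 and DKK1 the arrays of the line differed among themselves by more than 2-fold. OLFM1, an olfactomedin of neurons, was 18.7-fold higher, NNAT, an imprinted gene of developing neurons, 12.4-fold, and the somatostatin receptor SSTR2 13.3-fold. CD24, a surface glycoprotein of neuroblasts, read 6073, 8974 and 9300 against 617.3, 713.8 and 722.4. Enzymes in this range were ASS1 of arginine synthesis (13.5-fold), HK2, a hexokinase (11.3-fold), the peroxidase GPX7 (about 17.9-fold) and the sialyltransferase ST6GALNAC5 (about 14.9-fold).

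In the lower direction, ranks 9 to 34 held VAMP8, a SNARE of secretory epithelia, at 588.7, 787.8 and 821.4 on the wild-type arrays and 31.3, 29.1 and 29.0 in the line. YBX3, a cold shock domain protein, read 2384, 4462 and 3994 against 88.4, 161.9 and 174.9. CLU, the chaperone clusterin, was 12.8-fold lower and TPBG, a trophoblast glycoprotein, 15.3-fold. ALDH1A2, which makes retinoic acid, read 787.9, 531.8 and 732.3 against 63.0, 47.9 and 46.6. The other enzymes were CA2, a carbonic anhydrase (about 14.3-fold), and ME1, malic enzyme (13.3-fold). SELENOP, a selenium transport protein, read 121.4, 612.0 and 444.3 on the wild-type arrays and 17.1 to 19.5 in the line, with replicate 1 of wild type far below the others. The phosphatase PTPRK and the myosin MYO1D were about 16.2-fold and 15-fold lower, and TAGLN2, an actin-binding protein, 12.2-fold.

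A stricter reading asked which genes were near background in one group and on in the other. Of 11939 genes that could be named, 17 (0.142%) were on in the line only and 47 (0.394%) on the wild-type arrays only. The former included SCG2, SCG3, PDGFRA, ESRRG, NLGN4X, NAP1L3, GPX7, PTX3, ST6GALNAC5 and IFI44. The latter included KRT19, DSP, EPCAM, LSR, DSC3, ANXA1, CAV2, CCND2, GATA6, SALL1, EN2, HES1, EPHA7, NID2, PTPRK, CA2 and VAMP8. Both sets also held genes of no list used here, such as EMILIN1 and CNGA3 in the first and ABCB1 and QPCT in the second.

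Some genes often taken as stable also differed. Of 24 housekeeping genes, all on in both groups, 10 were lower in the line (41.7%) and 1 was higher (TFRC, adjusted p = 0.014; 0.055 without replicate 2 of wild type), with a median log2 difference of -0.26. SDHA, a subunit of succinate dehydrogenase, read 1656, 1222 and 1331 on the wild-type arrays and 475, 544.9 and 606.0 in the line. GPI, a glycolytic enzyme, was 2.07-fold lower, PSMB2, a proteasome subunit, 2.85-fold, and CHMP2A, of the ESCRT machinery, 3.53-fold. The lower share of this list was close to those of the mesenchymal-state (40%), apoptosis (40.7%), epithelial receptor (46.7%) and epithelial (47.6%) lists. It was above those of the neural tube (37.5%), cell cycle (36.8%), integrin (35.9%), endoderm (30.0%), interferon and antigen (27.5%) and YAP (27.3%) lists. Those shares alone therefore do not set these lists apart from housekeeping genes. At least 2-fold, 6 of the 24 were lower, against 17 of the 42 epithelial genes. In these bulk samples fewer cells of a type and less RNA per cell cannot be told apart.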

How the data were processed

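The authors deposited intensity values on a linear scale, made with RMA per the submitters' processing notes, with version and step back from log2 not given in the sources used here. Of 22283 probe sets, 68 AFFX controls were left out. A platform annotation gave 19065 of the rest 1 symbol, 1043 several and 2107 none, and 19053 matched RefSeq (GRCh38.p14) by Entrez identifier, with 0 symbols updated. Only the first were named, and 31 probe sets were tested but not named. Probe positions are not used here.

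Intensities were taken to log2 with no pseudocount and fitted in R 4.3.3 with limma 3.58.1 (lmFit with 3 group means over all 9 arrays, the contrast of the 69-kDa line minus wild type, eBayes). The design text calls the 3 samples of a group biological replicates. The fit was tested on simulated data of 22215 probe sets, with 50 changed per fold and independent normal noise. It recovered 50% of changes of 1.5-fold, 86% of 2-fold and 98% of 4-fold, with 12 false calls. In the real data 26.2% of probe sets were called and replicate 1 deviated as a set, so these rates need not hold there. Arrays have no read depth, so their number limits the precision.

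Named genes were CHAT and REST, the defining markers of each list, up to 6 members per list with the smallest adjusted p and no overlap of groups, and ranks 9 to 34 by log2 difference in each direction, with the 8 largest named only where a list holds them. Where a direction of a list had 5 or fewer calls, its members could also be named, and CELSR3, UNC13A, GRIA2 and KCNK3 were named for their promoters and NEFM, NEFH, INA and PRPH beside NEFL after their values were seen. The comparison, members and 52 lists were chosen with earlier results of these data known, so their counts are descriptions and no list was tested as a set.

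As a check of pairing, arrays of equal number deviated from their group means together, with r of 0.48, 0.28 and 0.33 over probe sets, all over 0.1. Replicates 2 and 3 of different groups correlated about as much (0.26 and 0.3), and replicate 1 opposed them. The check therefore parts replicate 1 from replicates 2 and 3, and does not show that numbers 2 and 3 are paired. The main fit held no block, so its calls are unpaired, and the block was run as an alternative. Alternatives were the 6 arrays alone, the replicate block, median centring, quantile normalization, a pseudocount of 16, a filter on dim probe sets, probe sets with suffixes _x_at and _s_at left out, trend and robust eBayes, array weights, each array left out, replicates 2 and 3 alone, an adjusted p of 0.01, and, for lists, the most variable probe set per gene.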

Additional observations from a re-analysis of the deposited data

How the results depend on the processing

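No gene named in the report reversed direction as a call under any alternative run. The count of 2422 higher probe sets came to 4590 with array weights, 3686 with the replicate block, 4114 with replicates 2 and 3 alone, 1229 without the suffixes _x_at and _s_at (which leaves 11813 probe sets to test) and 1505 at an adjusted p of 0.01. Without those suffixes the lower count was 1483 against 3396, and the 2-fold counts were 422 and 533 against 778 and 1238. Leaving out each array gave 1763 to 2919 higher and 2703 to 3817 lower probe sets, and 696 to 919 and 1179 to 1294 at 2-fold. For these counts the cause was not tested, beyond the fewer probe sets and the stricter threshold. With the replicate block DBH, COL1A1, VIM, MET and ITGB4 also passed (adjusted p = 0.045, 0.039, 0.027, 0.025 and 0.0081), and no other named gene changed its call. Of the list medians, 11 moved by more than their spread without the suffixes and 7 without dim probe sets. Signal near background limits low genes, whose folds are approximate.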
